A study of Mus musculus with 32 samples.

Results

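The subject is a set of 8 chemokine genes, Ccl5, Cxcl10, Ccl2, Ccl7, Cxcl1, Cxcl2, Cxcl5 and Cx3cl1, measured in the mouse stromal line EL08-1D2 with and without azacitidine. They were chosen by name as inflammatory chemokines of stromal cells, and all 8 were among the 21829 mouse genes of the deposited table. EL08-1D2 is a single adherent line from mouse embryonic liver that is used as a feeder layer for blood stem cells, so its libraries show 1 line and not the stroma of a living marrow. Azacitidine is a cytidine analogue that is built into nucleic acids and lowers DNA methylation by trapping DNA methyltransferases. The groups were 16 libraries of EL08 cells without AZA (azacitidine) and 16 of EL08 cells with AZA, numbered 1 to 16 in each group, and the labels used here give neither dose nor duration. No label says whether each library is a culture of its own. The p-values therefore weigh the difference against the scatter among these libraries, and that scatter may be technical.

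Chemokines are small secreted proteins that bind G protein-coupled receptors on leukocytes and draw these cells along a concentration gradient. They are named by the spacing of their first cysteines, as CC, CXC and CX3C. Stromal cells and fibroblasts are known to release them after stimulation by cytokines that act through NF-kB or by interferons that act through STAT and IRF factors. Ccl5 and Cxcl10 are known targets of both routes, whereas Ccl2, Ccl7, Cxcl1, Cxcl2 and Cxcl5 are classical NF-kB targets that call in monocytes or neutrophils.

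Values are CPM, which here are counts of unique molecular identifiers (UMIs, each marking 1 cDNA molecule) scaled to the size of the library by edgeR. Library totals ran from 818619 to 3210801 UMIs without and from 1226861 to 5039721 with azacitidine. Over all genes 528 of 9344 tested genes (5.65%) passed edgeR's quasi-likelihood test at a Benjamini-Hochberg adjusted p under 0.05, of which 341 (3.65%) rose and 187 fell. Scaling by spike-in RNA moved the median log2 fold change of all genes to 0.31 and gave 354 increases and 1 decrease, so changes below are relative to the other genes. The replicate numbers fall into 4 runs of 4 in order (the first is numbers 1 to 4), within which libraries were more alike, and an earlier look at these data set 5 libraries apart from the rest, namely untreated numbers 1 and 2 and treated numbers 1, 2 and 4. The labels do not name these runs. Of 12 stromal markers 10 averaged above 1 CPM, while Thy1 and Lepr had 0 UMIs without azacitidine. With azacitidine Thy1 had 26 UMIs, in 12 of 16 libraries. The stromal list summed to 11712 to 16542 CPM without and 8956 to 15342 CPM with azacitidine, where 1 of 10 tested markers rose and 4 fell. Without the filter on low counts edgeR called 2 of the 12 as higher and 4 as lower, against 718 and 142 of 21822 genes.

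With azacitidine, 4 of the 7 tested chemokines were called and all 4 were higher. Ccl5 and Cxcl10 rose several-fold, Ccl2 and Cx3cl1 rose by less than 1.5-fold, and Ccl7, Cxcl1 and Cxcl5 were not called. Cxcl2, which the filter on low counts removed, was called in the same test without that filter. Against these 4 of 7, the share of all tested genes called as higher was 3.65%, and since the members were chosen with earlier results known, the counts are a description. In bulk RNA, more cells that express a gene and more RNA per cell cannot be told apart.

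**Figure D1:**
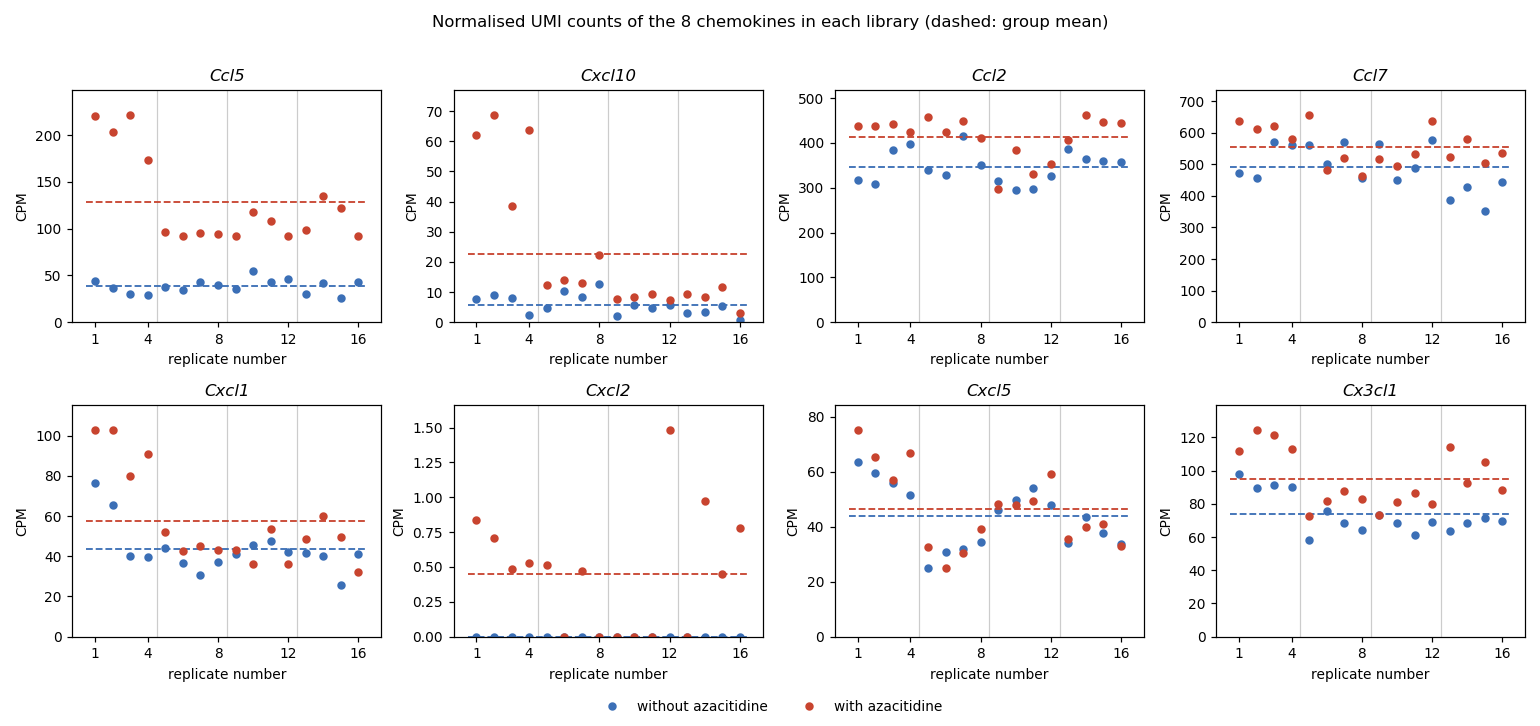
Level of the 8 chemokines in CPM, on linear axes that start at 0, against replicate number, with 1 point per library (blue without, red with azacitidine), dashed lines at the group means and grey lines between the runs of 4 numbers. Ccl5 does not overlap between the groups, Cxcl10 stands out in numbers 1 to 4 with azacitidine, and Cxcl5 follows the runs in both groups.

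Ccl5, a CC chemokine also called RANTES that attracts T cells, monocytes and other leukocytes through receptors that include CCR1 (ENSMUSG00000035042, chromosome 11, 83525778 to 83530518, minus strand, mm10), was the one chemokine of the set whose groups did not overlap. Without azacitidine its level ran from 25.7 through a median of 38.9 to 55.2 CPM, and with azacitidine from 92.0 through 103 to 221 CPM. All 16 treated libraries thus lay above the highest untreated one, which held for 0.278% of all tested genes. The means were 38.6 ± 7.68 and 128 ± 48.1 CPM (SD, n = 16 each), a 3.33-fold increase with a 95% interval of 2.70 to 4.09 (log2 fold change 1.73, SE 0.15, edgeR adjusted p = 8.67e-11). When the 4 libraries of a run in a group were added up, and the 4 sums per group were compared with a run term, the log2 fold change was 1.67 and the call was lost (edgeR, adjusted p = 0.0759).

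The rise of Ccl5 differed in size between the runs. The treated libraries with numbers 1 to 4 held 173 to 221 CPM and the other 12 held 92.0 to 135, while the untreated libraries of numbers 1 to 4, at 29.3 to 44.0, were within the range of the rest. In log2 units the change was 2.48 in numbers 1 to 4, 1.29 in 5 to 8, 1.15 in 9 to 12 and 1.69 in 13 to 16. A test for unequal changes among the runs, the interaction of run with treatment, called Ccl5 (edgeR, adjusted p = 3.41e-05), as it did 3.02% of all tested genes, and missed the threshold under spike-in scaling (adjusted p = 0.315) and without numbers 1 to 4 (0.351). The treated libraries of numbers 1 to 4 held 2058202 to 5039721 UMIs and the other treated libraries 1226861 to 4218313. With every library thinned to 818619 UMIs the interaction had an adjusted p = 7.93e-05 (edgeR). Thinning evens out the totals only, and the cause of the larger change in numbers 1 to 4 was not tested.

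Ccl5 is abundant in T and NK cells, so markers of such cells are given beside it. In total 2 of the 10 T and NK cell markers had a row in the table, and their summed level was 0 to 0.336 CPM without and 0 to 0.667 with azacitidine. The pan-leukocyte gene Ptprc had 1 UMI in the untreated and 4 in the treated group, and the macrophage marker Adgre1 had 0 and 1. The 9 of 11 macrophage genes in the table summed to between 16.7 and 38.2 CPM without and between 26.7 and 52.6 CPM with azacitidine, where Cd68 and Cd14 were tested and both rose. The 7 of 9 leukocyte genes in the table summed to 5.76 to 14.3 and 10.2 to 23.4 CPM, with Cd53 tested and called as higher. Over all tested genes 3.65% were called as higher. The neutrophil and platelet list stood at 12.2 to 25.5 and 8.32 to 26.4 CPM, and the endothelial list at 0 to 1.46 and 0.237 to 2.97 CPM. Without the filter on low counts edgeR called 3 of 7 leukocyte, 3 of 9 macrophage and 1 of 5 endothelial genes as higher. It called 0 of 2 T and NK cell and 0 of 7 neutrophil and platelet genes, against 3.29% of all genes called as higher. The part of these genes in the rise of Ccl5 was not tested.

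Cxcl10, a CXC chemokine also called IP-10 that attracts activated T cells through CXCR3 (ENSMUSG00000034855, chromosome 5, 92346638 to 92348889, minus strand), had a larger fitted fold change than Ccl5 over all libraries but a smaller one without numbers 1 to 4 (log2 0.96 against 1.37). RefSeq (GRCm38.p6) gives its promoter from 250 bases before to 50 bases after the start as chr5:92348840-92349139 on the minus strand. It is shown because it carries letters of both routes, with a match to the interferon-stimulated response element, searched as GAAA, any 2 bases and GAAA, and 2 matches to an NF-kB motif, searched as GGG, any 3 bases and TTCC, in capitals.
Cxcl10: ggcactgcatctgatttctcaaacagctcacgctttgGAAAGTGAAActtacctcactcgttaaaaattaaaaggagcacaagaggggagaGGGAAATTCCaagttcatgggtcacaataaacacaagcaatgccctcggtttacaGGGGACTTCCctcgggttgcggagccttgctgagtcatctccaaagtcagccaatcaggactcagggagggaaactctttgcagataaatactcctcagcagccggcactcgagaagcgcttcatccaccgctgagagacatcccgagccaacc
Searched on both strands, the interferon element was in 3.44% and the NF-kB motif in 5.56% of the 32851 promoters of this length. The NF-kB motif was loosened from GGG, any 2 bases and TTTCC, which is in 1.63% of promoters and not in this window, after the sequence had been seen. The element began 213 bases and the NF-kB matches 159 and 104 bases before the start. The window held 10 CpG sites, and 43.5% of promoters held at least as many. The matches are letters in a window and say nothing of binding.

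Without azacitidine Cxcl10 stood at 0.870 at the lowest, 5.47 at the median and 12.6 CPM at the highest, and with azacitidine at 3.13, 12.0 and 68.6 CPM. The groups overlapped, 7 of 16 treated libraries lay above every untreated one and 15 lay above the untreated median. The means were 5.87 ± 3.24 and 22.5 ± 22.5 CPM (SD, n = 16 each), a 4.00-fold increase with a 95% interval of 2.25 to 7.12 (log2 fold change 2.00, SE 0.41, edgeR adjusted p = 0.00136). Of the 1159 UMIs of Cxcl10 in the treated group, 905 came from numbers 1 to 4, whose libraries held 38.6 to 68.6 CPM, whereas no other treated library exceeded 22.2 CPM.

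The log2 change of Cxcl10 was 2.97, 0.77, 0.76 and 1.35 in the 4 runs in order of number, and the interaction was called (edgeR, adjusted p = 0.000477). Without numbers 1 to 4 the interaction had an adjusted p = 0.874. Leaving out numbers 1 to 4 also lowered the log2 fold change to 0.96 with the call kept (edgeR, adjusted p = 0.0175), and leaving out the 5 libraries that stood apart gave 1.22 (0.0173). With sums over runs and a run term it was 1.73 without a call (adjusted p = 0.255). Art3, a gene on the opposite strand that overlaps Cxcl10, had 1 UMI in the untreated and 17 in the treated group, and 3.59% of the 50-base words of Cxcl10 transcripts occur antisense in it. Whether strand was kept in counting is not given in the sources used here.

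**Figure D2:**
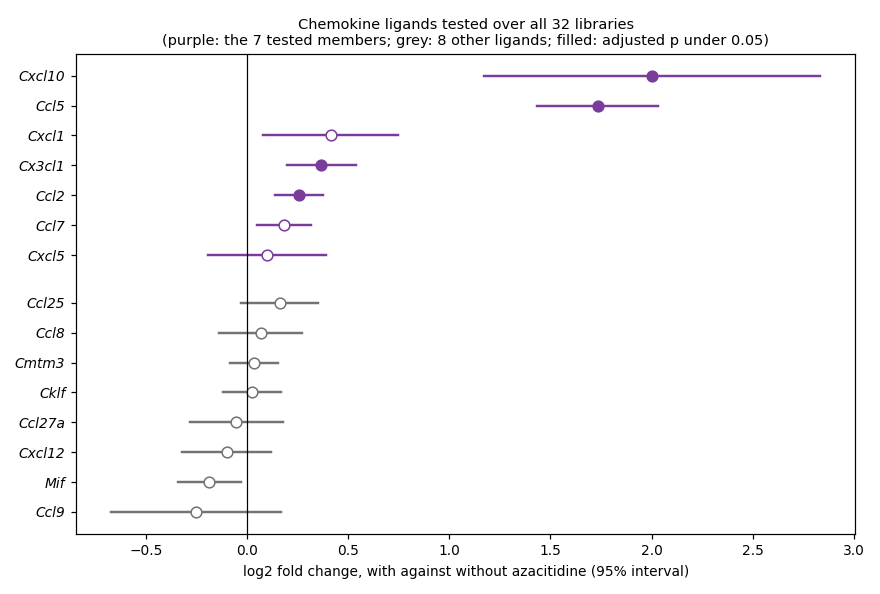
Log2 fold changes with 95% intervals (horizontal axis) of the 7 chemokines that passed the filter on low counts (purple) and of 8 other ligands (grey), over 16 against 16 libraries. Filled points passed an adjusted p under 0.05: Cxcl10 at 2.00, Ccl5 at 1.73, Cx3cl1 at 0.37 and Ccl2 at 0.26.

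Ccl2 and Ccl7 are CC chemokines, also called MCP-1 and MCP-3, that draw monocytes through CCR2. They are neighbours on the plus strand of chromosome 11, Ccl2 (ENSMUSG00000035385) at 82035571 to 82037453 and Ccl7 (ENSMUSG00000035373) at 82045712 to 82047525, 8.258 kb apart. Ccl2 ran from 295 through a median of 345 to 416 CPM without azacitidine and from 298 through 431 to 462 CPM with it. The groups overlapped over most of the untreated range, and 2 untreated libraries lay below every treated one. Of 16 treated libraries 10 lay above every untreated one and 14 above the untreated median. The means were 346 ± 36.8 and 413 ± 48.1 CPM (SD, n = 16 each), a 1.19-fold increase with an interval of 1.10 to 1.30 (log2 fold change 0.26, SE 0.06, edgeR adjusted p = 0.00383). It was 0.32, 0.28, 0.15 and 0.26 in the 4 runs, with no call of a difference between them (edgeR, adjusted p = 0.792). Under spike-in scaling it was 0.61, or 0.29 above the median of all genes, and was not called (edgeR, adjusted p = 0.0585). The gene Gm17268 overlaps Ccl2 on the opposite strand and had no row in the table.

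Ccl7 ran from 351 through 481 to 577 CPM without and from 462 through 534 to 655 CPM with azacitidine, with 15 of 16 treated libraries above the untreated median. The groups overlapped in part, with 7 of 16 treated libraries above every untreated one and 7 of 16 untreated libraries below every treated one. The means were 490 ± 71.3 and 556 ± 61.4 CPM (SD, n = 16 each), a 1.13-fold difference with an interval of 1.03 to 1.24 that missed the threshold over all genes (log2 fold change 0.18, SE 0.07, edgeR adjusted p = 0.104). A run term brought it under the threshold (adjusted p = 0.0224), as did the replicate block (0.0151), but in the sums over runs with a run term it was not called (0.167). Within runs it was 0.25, 0.02, 0.07 and 0.41. Every treated library lay above every untreated one in numbers 1 to 4 (580 to 636 against 457 to 570 CPM) and in numbers 13 to 16 (505 to 578 against 351 to 445 CPM). Such a gap is not particular to Ccl7. Ccl2 and Cx3cl1 had it in the same numbers, Ccl5 in every run, Cxcl10 in numbers 1 to 4 and 9 to 12, and Cxcl1 and Cxcl2 in numbers 1 to 4. The share of all genes with such a gap within a run was not counted. Ccl8, a further monocyte chemokine of the same part of chromosome 11 (82115185 to 82116799), stood at 494 ± 94.4 and 518 ± 111 CPM (SD, n = 16 each) without a call (edgeR, adjusted p = 0.809).

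Cxcl1, Cxcl2 and Cxcl5 attract neutrophils through CXCR2 and lie together on the plus strand of chromosome 5. Cxcl5 (ENSMUSG00000029371) is at 90759360 to 90761624, Cxcl1 (ENSMUSG00000029380) at 90891241 to 90893115 and Cxcl2 (ENSMUSG00000058427) at 90903871 to 90905938. The RefSeq promoters of Cxcl1, chr5:90890995-90891294, and Cxcl2, chr5:90903649-90903948, both on the plus strand, are shown because the 2 neighbours share an NF-kB match while Cxcl2 had no UMI in the untreated group. Capitals mark matches to the looser NF-kB motif on either strand, including overlapping ones.
Cxcl1: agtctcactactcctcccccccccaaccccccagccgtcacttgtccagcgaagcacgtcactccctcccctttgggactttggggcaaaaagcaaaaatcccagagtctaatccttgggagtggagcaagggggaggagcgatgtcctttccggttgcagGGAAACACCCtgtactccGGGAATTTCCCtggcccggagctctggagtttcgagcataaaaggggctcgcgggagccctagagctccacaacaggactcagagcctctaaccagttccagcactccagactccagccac
Cxcl2: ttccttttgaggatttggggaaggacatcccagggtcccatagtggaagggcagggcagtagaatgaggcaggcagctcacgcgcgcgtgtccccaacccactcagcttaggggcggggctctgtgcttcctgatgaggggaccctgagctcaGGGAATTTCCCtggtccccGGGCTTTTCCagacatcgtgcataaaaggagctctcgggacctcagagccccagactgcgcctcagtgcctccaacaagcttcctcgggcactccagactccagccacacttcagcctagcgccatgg
Both windows held the run GGGAATTTCCC, 71 bases before the start in Cxcl1 and 97 in Cxcl2, and a further match, 89 bases before it in Cxcl1 and 78 in Cxcl2, and neither held the interferon element. The stricter NF-kB motif was in both. They held 10 and 11 CpG sites, against a median of 7 over all promoters. The table of promoters matched 4 of the 8 members, the last being Cx3cl1, whose window (chr8:94771930-94772229, plus strand) held 19 CpG sites and neither motif.

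Cxcl1 ran from 25.7 through a median of 40.9 to 76.3 CPM without and from 32.1 through 49.2 to 103 CPM with azacitidine. The 4 treated libraries of numbers 1 to 4, at 80.1 to 103 CPM, were the ones above every untreated library, and the other 12 overlapped with the untreated group. The means were 43.5 ± 12.2 and 57.4 ± 23.5 CPM (SD, n = 16 each), a 1.33-fold difference with an interval of 1.06 to 1.68 that was not called (log2 fold change 0.41, SE 0.16, edgeR adjusted p = 0.157), although 13 of 16 treated libraries lay above the untreated median. Within runs it was 0.70, 0.30, -0.08 and 0.39, and the interaction was not called (edgeR, adjusted p = 0.268) but was without the filter on low counts (0.0316), where 3.15% of genes passed. A run term (edgeR, adjusted p = 0.0122), the replicate block (0.0106) and spike-in scaling (0.0176) each brought the main difference under the threshold, the sums over runs with a run term did not (0.131), and leaving out numbers 1 to 4 lowered it to 0.20 (adjusted p = 0.237). The log2 fold change under spike-in scaling was 0.72, or 0.41 above the median of all genes, against 0.41 in the main test. Relative to the other genes it was thus no larger.

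Cxcl2 had 0 UMIs in all 16 untreated libraries and 19 UMIs in the treated group, spread over 10 of 16 libraries with at most 4 in any. An untreated count of 0 allows up to 0.110 CPM over the summed group (3 counts), and the summed treated group held 0.495 CPM (exact Poisson 95% interval 0.298 to 0.774, counting error only). Against a floor of 3 counts over the group, the treated count as measured was at least 4.52-fold higher, and the low end of its interval was 2.72-fold above that floor. Without the filter on low counts edgeR called it (adjusted p = 0.0014), where 3.29% of 21822 genes were called as higher, but DESeq2 (adjusted p = 0.117) and thinned libraries (edgeR, adjusted p = 0.281) gave no call. Cxcl3, a close relative in the same cluster (chromosome 5, 90786103 to 90789600), likewise went from 0 to 24 UMIs, seen in 13 of 16 treated libraries, at least 5.70-fold higher as measured and 3.65-fold at the low end of its interval over the same floor, and was called without the filter (edgeR, adjusted p = 0.00043). Of the 50-base words of Cxcl2 transcripts 5.84% occur in Cxcl3, so molecules from the shared stretch could be counted for either gene.

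Cxcl5, also called LIX in the mouse, showed no difference beyond the spread. It ran from 25.2 through 44.8 to 63.5 CPM without and from 24.96 through 44.6 to 75.4 CPM with azacitidine, with means of 43.8 ± 11.5 and 46.7 ± 14.7 CPM (SD, n = 16 each). The ratio was 1.07 with an interval of 0.874 to 1.31 (log2 fold change 0.10, SE 0.14, edgeR adjusted p = 0.802), and 8 of 16 treated libraries lay above the untreated median. Most of its spread was between runs and was shared by both groups. The untreated means were 57.6, 30.6, 49.5 and 37.2 CPM in the 4 runs and the treated means 66.2, 31.8, 51.3 and 37.3 CPM.

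Cx3cl1, or fractalkine, is made as a membrane-bound chemokine that holds CX3CR1-bearing leukocytes to the cell surface and is released by the proteases ADAM10 and ADAM17 (ENSMUSG00000031778, chromosome 8, 94772009 to 94782427, plus strand). Its level ran from 58.1 through 69.4 to 98.2 CPM without and from 72.7 through 88.0 to 125 CPM with azacitidine. The ranges overlapped, but all 16 treated libraries lay above the untreated median. The means were 73.9 ± 11.9 and 94.9 ± 17.4 CPM (SD, n = 16 each), a 1.29-fold increase with an interval of 1.15 to 1.45 (log2 fold change 0.37, SE 0.08, edgeR adjusted p = 0.00383). It was 0.35, 0.29, 0.25 and 0.55 in the 4 runs, without a call of a difference between them (edgeR, adjusted p = 0.518). Cx3cl1 passed the threshold under each of the 12 alternatives run. Its sheddase genes Adam10 and Adam17 were not called, at 70.3 and 51.0 CPM without and 73.5 and 47.3 CPM with azacitidine (edgeR, adjusted p = 0.790 and 0.534).

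**Figure D3:**
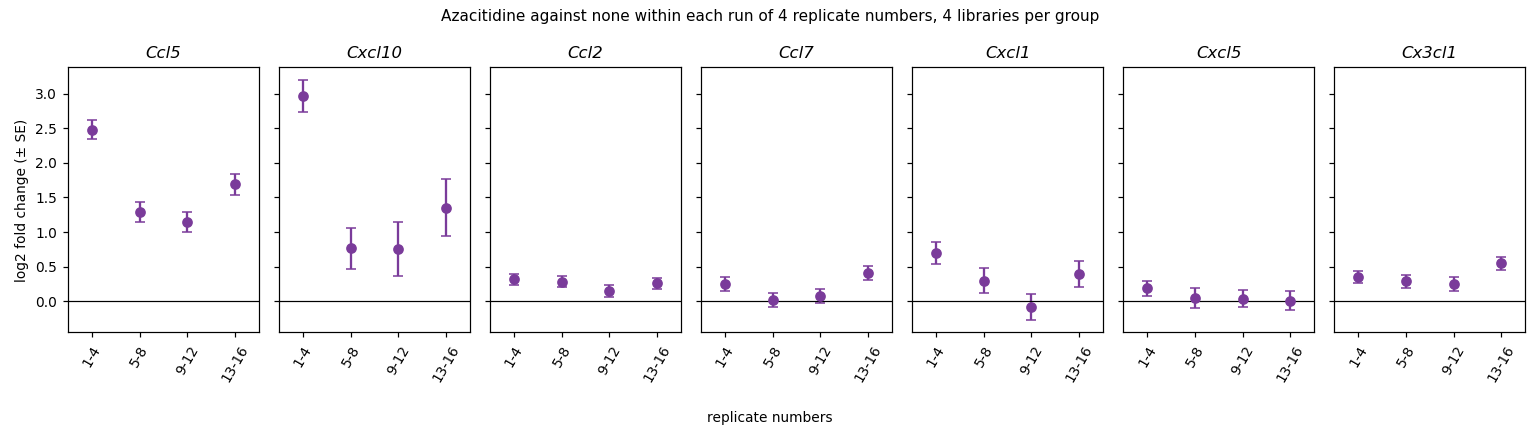
Log2 fold change of azacitidine against none, with its SE, within each run of 4 replicate numbers (4 libraries per group) for the 7 tested chemokines. Ccl5 lies between 1.15 and 2.48 and Cxcl10 between 0.76 and 2.97, both highest in numbers 1 to 4, while Cxcl5 lies between 0.01 and 0.19.

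Over the 32 libraries, after removal of the group means, the genes whose log2 levels went most nearly with Ccl5 were Ly6a, a surface protein (Pearson r = 0.82), and the class I histocompatibility genes H2-K1 (0.79) and H2-T23 (0.77). These values are descriptions over libraries that share runs, and with the run means removed too they were 0.43, 0.35 and 0.31. For Cxcl10 the nearest were Serpinf1 (r = 0.85), Rhod (0.85) and Lias (0.84), none of which was called, and with run means removed they kept 0.56, 0.68 and 0.76. For Cxcl5 they were the complement gene C3 (0.88), Rnase4 (0.86) and Hivep3 (0.86), which fell to 0.24, 0.29 and 0.36, and for Cx3cl1 Mrgprf (0.85), Ssc5d (0.83) and Fbln1 (0.81), which fell to 0.37, 0.30 and 0.22. For Cxcl1 they were Idh3g (0.89), Gm10250 (0.89) and Dnajc1 (0.88), with 0.63, 0.78 and 0.71 after removal of run means. Ccl2 went most nearly with 9930012K11Rik (0.77), Pdlim2 (0.68) and Pclaf (0.67), which had 0.52, -0.10 and 0.11 with run means removed, and Ccl7 with Slc25a4, Tmem185a and Gem (each 0.67; 0.58, 0.55 and 0.45). Among the members themselves Ccl5 and Cxcl1 had r = 0.75, Ccl5 and Cxcl10 0.58, and the neighbours Ccl2 and Ccl7 0.12. With run means removed these were 0.57, 0.10 and 0.51.

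The other ligands give the setting. Of 33 listed, 25 had a row in the table and 8 were tested, with a median log2 fold change of -0.01 against 0.00 over all tested genes. Neither edgeR nor DESeq2 called any of the 8. Over all tested genes edgeR called 5.65%, so 0 of 8 does not set these ligands apart. Mif alone, 1 gene of the 8, had an edgeR p under 0.05 before adjustment, as did 1600 of all 9344 tested genes. Cxcl12, the niche chemokine that retains blood stem cells, stood at 779 ± 141 and 726 ± 189 CPM (SD, n = 16 each; edgeR, adjusted p = 0.709), and Ccl9, Ccl25 and Ccl27a were likewise not called. Mif, a chemokine-like cytokine, was at 3166 ± 537 and 2783 ± 362 CPM (edgeR, adjusted p = 0.173), and a run term called it as lower (0.0163), whereas the sums over runs called 0 of 12 such ligands. Among ligands that the filter removed although they averaged at least 5 UMIs in 1 of the groups, Cxcl16 had 134 UMIs without and 248 with azacitidine and Ppbp had 80 and 131, without a call. Cxcl9 and Cxcl11 share the receptor CXCR3 with Cxcl10. Cxcl9 had 0 and 1 UMI, and Cxcl11 had 22 and 69 UMIs (edgeR without the filter, adjusted p = 0.207).

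The cells carried few transcripts of the receptors for these ligands. Of 23 receptor genes 15 had a row and 1, the scavenging CXCL12 receptor Ackr3, was tested. Ackr3 stood at 14.3 and 16.9 CPM and was not called by edgeR (adjusted p = 0.294) or DESeq2. Before adjustment 0 tested receptors had an edgeR p under 0.05, against 1600 of all 9344 tested genes. Ccr1 had 17 UMIs in the untreated and 28 in the treated group, Cx3cr1 3 and 4, and Ccr2, Cxcr2 and Cxcr3 0 and 1 each.

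Genes of interferon signalling, a list that runs from receptors and RNA sensors to transcription factors, rose in part. Of 22 tested genes 6 rose and 0 fell, with a median log2 fold change of 0.08, against 3.65% called as higher over all tested genes. Irf7, a transcription factor that amplifies interferon responses, rose from 20.05 ± 8.58 to 54.9 ± 29.2 CPM (SD, n = 16 each; log2 fold change 1.49, SE 0.24, edgeR adjusted p = 4.86e-05). Irf9 and Stat2, whose products are parts of the factor that binds the response element, rose by 0.72 (SE 0.11) and 0.48 (SE 0.08) on the log2 scale (edgeR, adjusted p = 9.88e-06 and 7.16e-05). The RNA sensor genes Ddx58 and Ifih1, named here after their values were seen, rose by 0.69 and 1.15. Irf1, Irf3, the receptor genes Ifnar1, Ifnar2, Ifngr1 and Ifngr2 and the adaptor gene Tmem173 were not called.

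The size of the change differed between runs for 5 of these 6 genes and not for Ifih1 (edgeR, interaction adjusted p = 0.756). Over all tested genes 3.02% passed this interaction test. Irf7 changed by 2.60, 0.58, 0.60 and 1.63 in the 4 runs and Irf9 by 1.21, 0.24, 0.23 and 1.18, and both passed the interaction test (edgeR, adjusted p = 1.2e-07 and 8.91e-07), as did Stat2 and Ddx58. With sums over runs and a run term Irf7, Irf9 and Ddx58 lost their calls (adjusted p of 0.315, 0.271 and 0.0902 in edgeR), and 2 genes of the list were called.

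NF-kB genes showed 1 call. Of 24 tested subunits, kinases and feedback inhibitors 0 rose and 1 fell, with a median of 0.06, against 5.65% called over all genes. Under spike-in scaling, where the median log2 fold change of all genes was 0.31, 1 rose and 0 fell. The gene called then was Irak1, a kinase of the interleukin-1 receptor pathway (log2 fold change 0.84, edgeR adjusted p = 0.0127). Irak4, a kinase of the interleukin-1 receptor pathway, fell from 17.5 ± 4.28 to 13.2 ± 2.83 CPM (SD, n = 16 each; log2 fold change -0.38, SE 0.11, edgeR adjusted p = 0.0398), and it was not called without the filter on low counts (0.0621), with spike-in scaling (0.642) or in the sums over runs (0.115). The inhibitor gene Nfkbia, itself a rapid NF-kB target, was at 101 and 113 CPM (edgeR, adjusted p = 0.248), and Rela, Nfkb1, Nfkb2 and Relb were not called.

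No tested gene that handles chemokine transcripts or proteins was called. Over all tested genes edgeR called 5.65%, so 0 calls in lists this short do not set these genes apart. Among 9 tested regulators of mRNA stability, edgeR and DESeq2 called 0, and 0 had an edgeR p under 0.05 before adjustment, with a median of 0.01. Among 19 tested genes of processing and presentation both called 0, and 3 had an edgeR p under 0.05 before adjustment, with a median of 0.04. Before adjustment 1600 of all 9344 tested genes had such a p, so neither count sets its list apart. Ctsk, a cathepsin, was at 34.1 and 46.6 CPM and was called as higher with a run term (edgeR, adjusted p = 0.00527), sums with a run term (0.0131) and spike-in scaling (0.0175). Without the filter on low counts Mmp8, a neutrophil collagenase gene, was called as higher, with 23 UMIs in the untreated and 103 in the treated group (edgeR, adjusted p = 0.0083).

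Of 11 tested other inflammatory mediators 4 rose and 0 fell, with a median of 0.19, against 3.65% called as higher over all tested genes. Saa3, an acute-phase protein gene, rose from 6.50 ± 2.84 to 15.2 ± 7.85 CPM (log2 fold change 1.25, SE 0.24), Ptges, a prostaglandin E synthase, from 79.7 ± 14.3 to 113 ± 24.2 CPM (0.50, SE 0.09) and Il33, an alarmin, from 18.4 ± 7.47 to 30.9 ± 11.5 CPM (0.71, SE 0.20; SD, n = 16 each; edgeR, adjusted p = 0.000562, 0.000353 and 0.0255). The adhesion gene Vcam1 rose by 0.20 (SE 0.05) on the log2 scale and lost its call under spike-in scaling (edgeR, adjusted p = 0.136) and with sums and a run term (0.066). None of these 4 passed the test of a difference between runs (edgeR, adjusted p = 0.599 to 0.848), which 3.02% of all tested genes passed. Tnf, a main inducer of NF-kB chemokines, had 0 and 1 UMI, and Il6 had 33 and 63 UMIs without a call. Without the filter on low counts edgeR also called Csf2, a myeloid growth factor gene with 5 and 33 UMIs, and the adhesion gene Icam1 with 0 and 11.

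**Figure D4:**
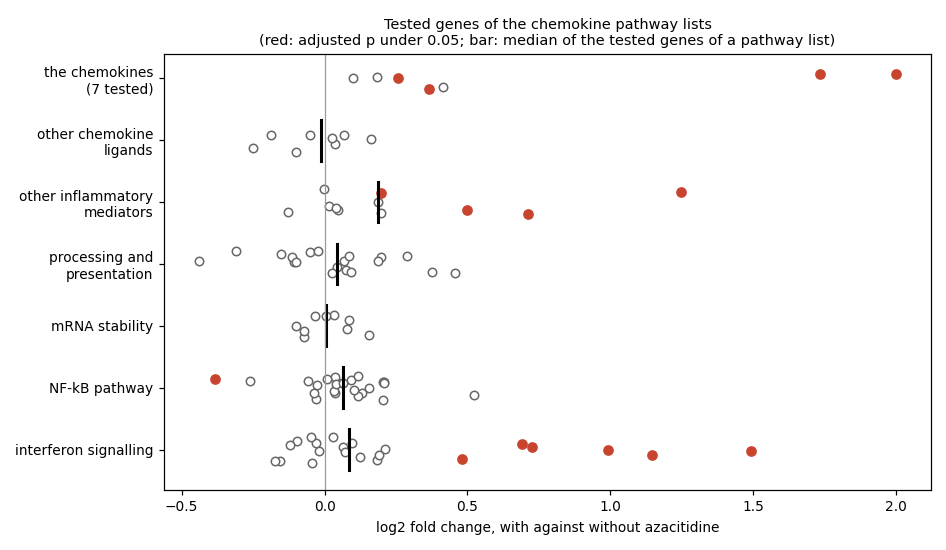
Log2 fold changes (horizontal axis) of the tested genes of each list, 1 point per gene, red where the adjusted p was under 0.05, with a bar at each pathway list's median. Interferon signalling holds 6 called genes of 22 and NF-kB 1 of 24, and 4 of the 7 tested chemokines are called. Over all tested genes 5.65% were called.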

How the data were processed

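Total RNA of EL08 cells was made into barcoded, pooled cDNA by a protocol with unique molecular identifiers and a transposase-based library kit, per the labels' protocols. The deposited values are whole-number counts of UMIs per gene and library, with no normalization found in them. STAR 2.4.0, bedtools 2.17.0 and the build mm10 are named in the submitters' processing notes. The annotation, the collapsing of identifiers and the use of strand are not given in the sources used here. Depth was 818619 to 5039721 UMIs per library, and intervals from counts cover counting error only.

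The 68 spike-in entries (0.106% of all UMIs) stayed out of library sizes and tests. Symbols and positions came from GENCODE mouse release M21 and matched 21506 of 21829 genes, and promoter sequences came from RefSeq. The groups, taken from the titles, were compared with edgeR 4.0.16 (quasi-likelihood, robust, TMM, default expression filter by group, two-sided) on all genes, with Benjamini-Hochberg adjustment and a threshold of 0.05. After the filter 9344 genes remained, which held 98.8% of all counts, and 12485 were dropped. The SE of a log2 fold change was derived from its F statistic. The interaction test fitted run, group and their product. Likeness used log2 CPM with a prior count of 0.5. The test was checked on simulated counts drawn without effects shared within runs, so that check does not cover the likeness of libraries within a run. No pair of libraries of a group differed by sampling noise alone, since chi-square divided by its degrees of freedom was at least 1.13 in untreated and 1.11 in treated pairs.

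The members, the lists and the tests were chosen with earlier results of these data known. The rule named all 8 members, up to 4 called genes per list in order of p, other ligands that averaged at least 5 UMIs in a group, and the 3 tested genes most like each member with such a mean. Some genes that the rule took are not reported here. Further genes in the text were chosen after their values were seen. The alternatives were the replicate block, DESeq2 size factors, spike-in scaling, DESeq2 1.42.0, other filters, thinning, left-out libraries, a run term and sums over runs. Fits ran in R 4.3.3. Summaries and figures were made in Python 3.11.15 with pandas 2.3.3, scipy 1.17.1 and matplotlib 3.10.9.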

Additional observations from a re-analysis of the deposited data

Results flagged for a closer look

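For 2 of the 8 chemokines the effect of azacitidine differed between the runs of 4 replicate numbers by the test of the interaction over all genes. For Ccl5 the adjusted p was 3.41e-05 (edgeR), with log2 fold changes from 1.15 to 2.48 and treated libraries above every untreated one in each run. For Cxcl10 it was 0.000477 (edgeR), with log2 fold changes from 0.76 to 2.97. The interaction passed for 3.02% of all tested genes. What the runs stand for is not given in the sources used here, and its part was not tested.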

How the results depend on the processing

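Over all genes the count of 528 calls moved to 897 with the replicate block (518 rose, 379 fell), 993 with a run term, 860 without the filter on low counts (718 rose, 142 fell) and 262 with thinned libraries. Of the 528, 521 were among those called with the block. No label says that the numbers pair the libraries, so they were not taken as pairs. Same-numbered libraries correlated by -0.28 to 0.82 (12 of 16 pairs above 0.1, and 4 of 16 untreated libraries matched their own number best). Between untreated and treated libraries the median was 0.18 for the same number, 0.17 for other numbers of the same run and -0.03 for other runs. The block called Ccl7 (log2 fold change 0.19, edgeR adjusted p = 0.0151) and Cxcl1 (0.38, 0.0106) and changed no other member's call. A run term also called Ccl7 (0.19, 0.0224) and Cxcl1 (0.36, 0.0122), and spike-in scaling called Cxcl1 (0.72, 0.0176) and lost Ccl2 (0.61, 0.0585). Under spike-in scaling the median of all genes was 0.31, and Cxcl1 lay 0.41 and Ccl2 0.29 above it.

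The count of 5 called chemokines was 3 with thinned libraries, where the filter left no value for Cxcl10, and 3 with sums over runs and a run term, which have fewer samples and lost Ccl5 (1.67) and Cxcl10 (1.73) and did not call Ccl7 (edgeR, adjusted p = 0.167) or Cxcl1 (0.131). Cxcl2 lost its call in DESeq2 (2.04) and with thinned libraries (1.58), and a filter of a mean of at least 5 UMIs gave it no value. Cxcl5 turned from 0.10 to -0.0056 without the 5 libraries that stood apart, and was not called in either case. Among the lists, a run term gave 1 call in other ligands (Mif), 2 in processing (Ctsk, Mmp9) and 2 in NF-kB genes (Irak4, Il1r1). Sums with a run term gave 0 in other ligands, 1 in processing, 0 in NF-kB genes and 2 in interferon signalling, and spike-in scaling gave 1 in processing and, in NF-kB genes, Irak1 in place of Irak4. The 282 genes that differed between runs became 21 with spike-in scaling, 687 without the filter and 166 with thinned libraries. The interaction of Ccl5 had an adjusted p of 0.315 with spike-in scaling and 0.351 without numbers 1 to 4, that of Cxcl10 0.874 without numbers 1 to 4, and that of Cxcl1 0.0316 without the filter (edgeR). Beyond what is stated here, the cause of these shifts was not tested. The other 183 values kept their direction and side of the threshold, or moved by less than 1.5 times where they were counts. Depth limits what can be said of genes with few or no UMIs, such as Cxcl2, Cxcl3 and most receptors.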
